A study of Mus musculus with 8 samples.

Results

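The genes described are 9 components of Nodal signaling in mouse embryonic stem cells (mESCs), chosen by name and by role: the ligands Nodal and Gdf3, the antagonists Lefty1 and Lefty2, the co-receptors Tdgf1 and Cfc1, the transcription partner Foxh1, and the convertases Furin and Pcsk6. All 9 were among the 24849 genes listed for every sample. Polyadenylated RNA was sequenced from wild type (WT) and Pcgf5-/- cells of the MPI-II mESC line, whose strain is given as 129S2/SvPas, before differentiation (day 0) and after 6 days, with 2 samples in each of the 4 groups and 8 in all. Day 0 cells of both genotypes were kept on feeder cells with serum, leukemia inhibitory factor and the inhibitors CHIR99021 and PD0325901, and day 6 cells of both genotypes had been moved to N2B27 medium, in which mESCs turn towards a neural fate. The Pcgf5-/- cells came from drug-selected colonies in which TALEN nucleases and selection cassettes had disrupted the gene; how many colonies lie behind the sequenced samples is not given in the sources used here. The comparisons ask how loss of PCGF5, a subunit of the histone H2A ubiquitin ligase complex PRC1, goes with the RNA levels of these genes at each day.

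Nodal is a secreted ligand of the TGF-β family that is made as a precursor, cut by convertases, and received by activin receptors together with an EGF-CFC co-receptor. The receptors phosphorylate SMAD2 and SMAD3, which enter the nucleus and act with partners such as FOXH1 on target genes that include Nodal itself and the Lefty genes, whose products block the pathway in turn. Nodal and activin signaling is known for holding back neural differentiation of pluripotent cells.

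Values are given as FPKM, fragments per kilobase of transcript scaled also to the mapped fragments of each sample, and can be compared between genes. The files give no fragment totals, and the steps between low FPKM values put the relative depth of the 8 samples between 0.997 and 1.3, with the first WT day 0 sample set to 1. Replicates correlated at a Pearson r of 0.972 to 0.974 across genes. Pcgf5 itself was at 5.18 and 3.63 FPKM in WT and 1.28 and 1.84 FPKM in Pcgf5-/- samples at day 0, and at 9.16 and 5.06 FPKM against 0.669 and 0.457 FPKM at day 6, so the genotypes did not overlap at either day (limma adjusted p = 0.105 and 0.00421). Genes on 2 chromosomes stood apart from the rest: the 643 tested genes of chromosome 6 had a median log2 difference (Pcgf5-/- minus WT) of 0.41 before and 0.37 after differentiation, and the 1086 of chromosome 11 one of 0.48 and 0.38. The other chromosomes had medians from 0.04 to 0.12 before and from -0.06 to 0.03 after it. Of the genes described, Gdf3 lies on chromosome 6 and none lies on chromosome 11.

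Lefty1 and Lefty2 are neighbors that share much of their sequence, which bears on how fragments were divided between them. They lie at chr1:182865170-182868532 and chr1:182823250-182829233 (NCBIM37, the build called mm9, both on the + strand). Their coding sequences, 1107 bases each, were identical at 91.9% of positions, with 90 bases that differed. Of all stretches of 50 bases in the annotated transcript, 17.9% of those of Lefty1 also occurred in Lefty2 and 11.6% of those of Lefty2 occurred in Lefty1; with 100 bases the shares were 4.8% and 3.07%. The read length behind these files was not used here, so the share of fragments that could have come from either gene was not measured.

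The start regions of Tdgf1 and Nodal, which encode the co-receptor and its ligand, are shown because both genes changed in the comparisons and their windows differ in letters tied to the pathway. The 250 bases before each start are from RefSeq (GRCm38.p6, chr9:110946159-110946408 on the - strand and chr10:61417722-61417971 on the + strand). Capitals mark matches on either strand to TGTNNATT and to CAGAC, a core bound by SMAD proteins. TGTNNATT is a loose form of the FOXH1 site that accepts any base at its 2 middle positions.
Tdgf1: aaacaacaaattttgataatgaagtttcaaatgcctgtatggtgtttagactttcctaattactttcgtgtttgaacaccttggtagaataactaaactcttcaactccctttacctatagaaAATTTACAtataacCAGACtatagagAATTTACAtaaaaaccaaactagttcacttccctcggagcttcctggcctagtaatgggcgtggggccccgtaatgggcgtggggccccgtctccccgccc
Nodal: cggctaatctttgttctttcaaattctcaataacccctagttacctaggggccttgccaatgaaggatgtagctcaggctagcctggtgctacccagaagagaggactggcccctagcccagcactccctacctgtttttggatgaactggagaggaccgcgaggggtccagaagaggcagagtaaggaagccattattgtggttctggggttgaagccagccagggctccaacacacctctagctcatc
In the whole window from 250 bases before to 50 bases after the start, Tdgf1 held 2 matches to the FOXH1 letters, beginning at positions -127 and -101 from the start, and 1 match to the SMAD letters between them (position -113), with no overlap. Nodal held neither. At least 1 match to the FOXH1 letters occurred in 12.2% of 32851 promoter windows of the same length and at least 2 in 1.43%, whereas the SMAD letters occurred in 49.6%. RefSeq windows were at hand for 5 of the 9 genes; Cfc1 held 1 match to the SMAD letters, the windows of both Furin starts held 2 and 1, and Pcsk6 held no match to either. The matches of Tdgf1 to the loose FOXH1 letters both read AATTTACA, and whether FOXH1 binds them was not tested. A match of letters is a description of the sequence and not evidence of binding.

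Of the ligands, Nodal (chr10:60880720-60888085, + strand) was lowest in differentiated WT cells and stayed higher in differentiated Pcgf5-/- cells. It was at 37.2 and 28.6 FPKM in WT and 41.1 and 30.2 FPKM in Pcgf5-/- samples at day 0, and at 6.78 and 3.61 FPKM in WT and 21.0 and 16.1 FPKM in Pcgf5-/- samples at day 6. The genotypes overlapped at day 0 and were apart at day 6, where the mean was 3.58-fold higher in Pcgf5-/- cells. Gdf3 (chr6:122555421-122560089, - strand), a TGF-β family ligand expressed in pluripotent cells, did not overlap between the genotypes at day 0. It was then at 51.6 and 66.7 FPKM in WT and 72.9 and 74.9 FPKM in Pcgf5-/- samples, a difference that did not pass (limma adjusted p = 0.726). At day 6 it was at 18.2 and 6.17 FPKM in WT and 80.1 and 61.4 FPKM in Pcgf5-/- cells, a 5.80-fold difference of the means. Within the Pcgf5-/- cells the samples of the 2 days overlapped, whereas in WT cells day 6 lay below day 0.

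The antagonists differed in how they moved with time, Lefty2 being lower at day 6 in both genotypes and Lefty1 higher at day 6 in Pcgf5-/- cells. Lefty2 was the most abundant antagonist at day 0, at 92.5 and 137 FPKM in WT and 129 and 183 FPKM in Pcgf5-/- cells, and at day 6 it was at 11.9 and 4.79 FPKM in WT and 48.5 and 35.5 FPKM in Pcgf5-/- cells. Lefty1 was at 6.97 and 25.4 FPKM in WT and 5.75 and 9.07 FPKM in Pcgf5-/- samples at day 0, and at 31.1 and 13.8 FPKM in WT and 109.9 and 81.8 FPKM in Pcgf5-/- samples at day 6. The day 6 Pcgf5-/- samples thus stood above all 6 others for Lefty1, while for Lefty2 the highest samples were those of day 0. The WT day 0 samples of Lefty1 differed by a ratio of 3.65, the largest between replicates for any of the 8 tested genes.

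Lefty2 predominated at day 0 and Lefty1 at day 6 in both genotypes. Lefty1 made up 7.0% and 15.6% of the summed Lefty1 and Lefty2 FPKM in WT and 4.26% and 4.71% in Pcgf5-/- samples at day 0. At day 6 it made up 72.4% and 74.2% in WT and 69.4% and 69.8% in Pcgf5-/- cells. Across both genotypes the share was 7.90% ± 5.30 (SD, n = 4) at day 0 and 71.5% ± 2.29 (SD, n = 4) at day 6, a difference of 63.6 percentage points (two-sided exact permutation test of the days, p = 0.0286, the smallest p that 4 samples against 4 can give). That test was not among the planned contrasts, and as the shares of the days did not overlap, its p could only be the smallest. It pooled the genotypes and did not exchange samples within each genotype only. The shares of the genotypes did not overlap at either day and were higher in WT, and 2 samples against 2 cannot give an exact p under 0.333. The sums at day 6 were further apart, at 43.0 and 18.6 FPKM in WT and 158 and 117 FPKM in Pcgf5-/- cells. Before differentiation they were 99.5 and 163 FPKM in WT and 135 and 193 FPKM in Pcgf5-/- cells, so in Pcgf5-/- cells the sums of the 2 days overlapped.

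**Figure D1:**
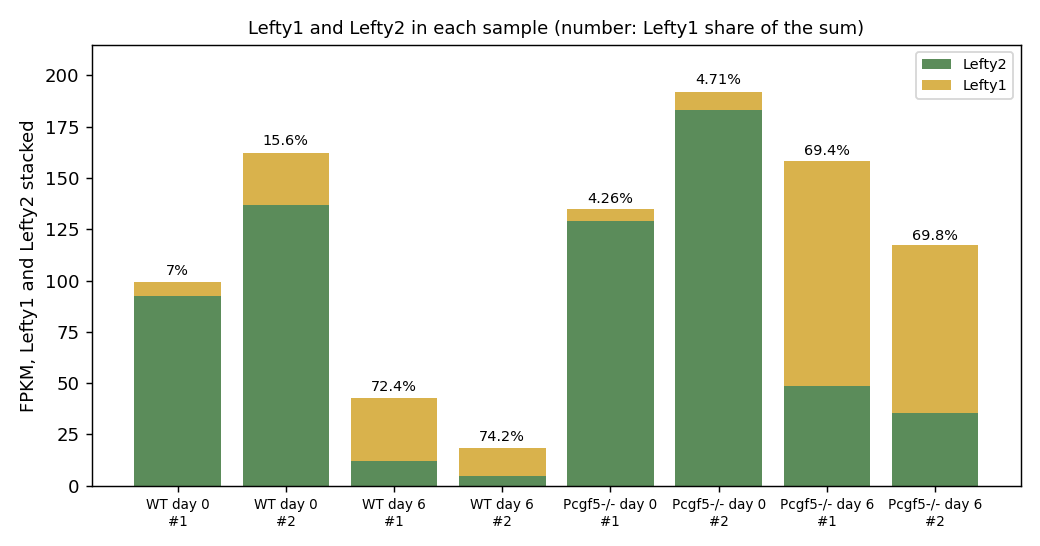
FPKM of Lefty2 (green) and Lefty1 (yellow) stacked for each of the 8 samples, with the Lefty1 share of the sum above each bar. The share was 15.6% or less in the day 0 samples and 69.4% or more in the day 6 samples of both genotypes, while the day 6 sums were 43.0 and 18.6 in WT and 158 and 117 in Pcgf5-/- cells.

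The EGF-CFC co-receptors were at opposite ends of the range. Tdgf1 (Cripto; chr9:110842112-110848662, - strand) had the highest mean of the 9 genes in every group, at 269 and 197 FPKM in WT and 321 and 262 FPKM in Pcgf5-/- samples at day 0. At day 6 it was at 41.2 and 12.5 FPKM in WT and 168 and 98.5 FPKM in Pcgf5-/- cells, 4.96-fold higher in the mean. Second to it by mean level came Lefty2 at day 0 and Lefty1 at day 6, and the samples of Tdgf1 and Lefty1 overlapped at day 6 in both genotypes. Stretches resembling the Tdgf1 transcript lie elsewhere in the genome, on chromosome 2 (81.9% of the transcript aligned at 86.4% identity), chromosome 16 (51.7% at 96.7%) and chromosome 17 (22.3% at 90.4%), so fragments could have been assigned to more than one place. Cfc1 (Cryptic; chr1:34592493-34601156, + strand) was at or near 0 throughout, at 0.0778 and 0 FPKM in WT and 0.139 and 0 FPKM in Pcgf5-/- samples at day 0, and at 0.181 and 0.0674 FPKM in WT and 0 and 0.0785 FPKM in Pcgf5-/- samples at day 6. It did not reach the minimum for testing, a mean above 1 FPKM in at least 1 group, and its last 337 bp overlap Prss40 on the other strand.

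Foxh1 (chr15:76498654-76500378, - strand), the DNA-binding partner of SMAD2 and SMAD3, was lowest in differentiated WT cells. It was at 19.2 and 25.9 FPKM in WT and 29.4 and 24.6 FPKM in Pcgf5-/- samples at day 0, and at 12.9 and 9.29 FPKM in WT and 32.2 and 31.6 FPKM in Pcgf5-/- samples at day 6. WT samples of the 2 days were apart, with day 6 below day 0, and the day 6 mean was 2.88-fold higher in Pcgf5-/- than in WT cells.

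The convertases, proteases that cut the precursors of Nodal and other secreted proteins, followed other patterns. Furin (chr7:87534080-87550317, - strand) was at 9.75 and 10.9 FPKM in WT and 7.04 and 13.0 FPKM in Pcgf5-/- samples at day 0, and at 7.37 and 11.8 FPKM in WT and 7.44 and 7.27 FPKM in Pcgf5-/- samples at day 6. Its groups overlapped in each comparison of genotypes and of days. Pcsk6 (PACE4; chr7:73007022-73195272, + strand) was at 23.6 and 23.8 FPKM in WT and 15.6 and 19.3 FPKM in Pcgf5-/- samples at day 0, and at 4.41 and 4.52 FPKM in WT and 6.77 and 4.51 FPKM in Pcgf5-/- samples at day 6. It was lower at day 6 in both genotypes. The Pcgf5-/- samples lay below both WT samples at day 0, a difference that did not pass (limma adjusted p = 0.314), and the genotypes overlapped at day 6.

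**Figure D2:**
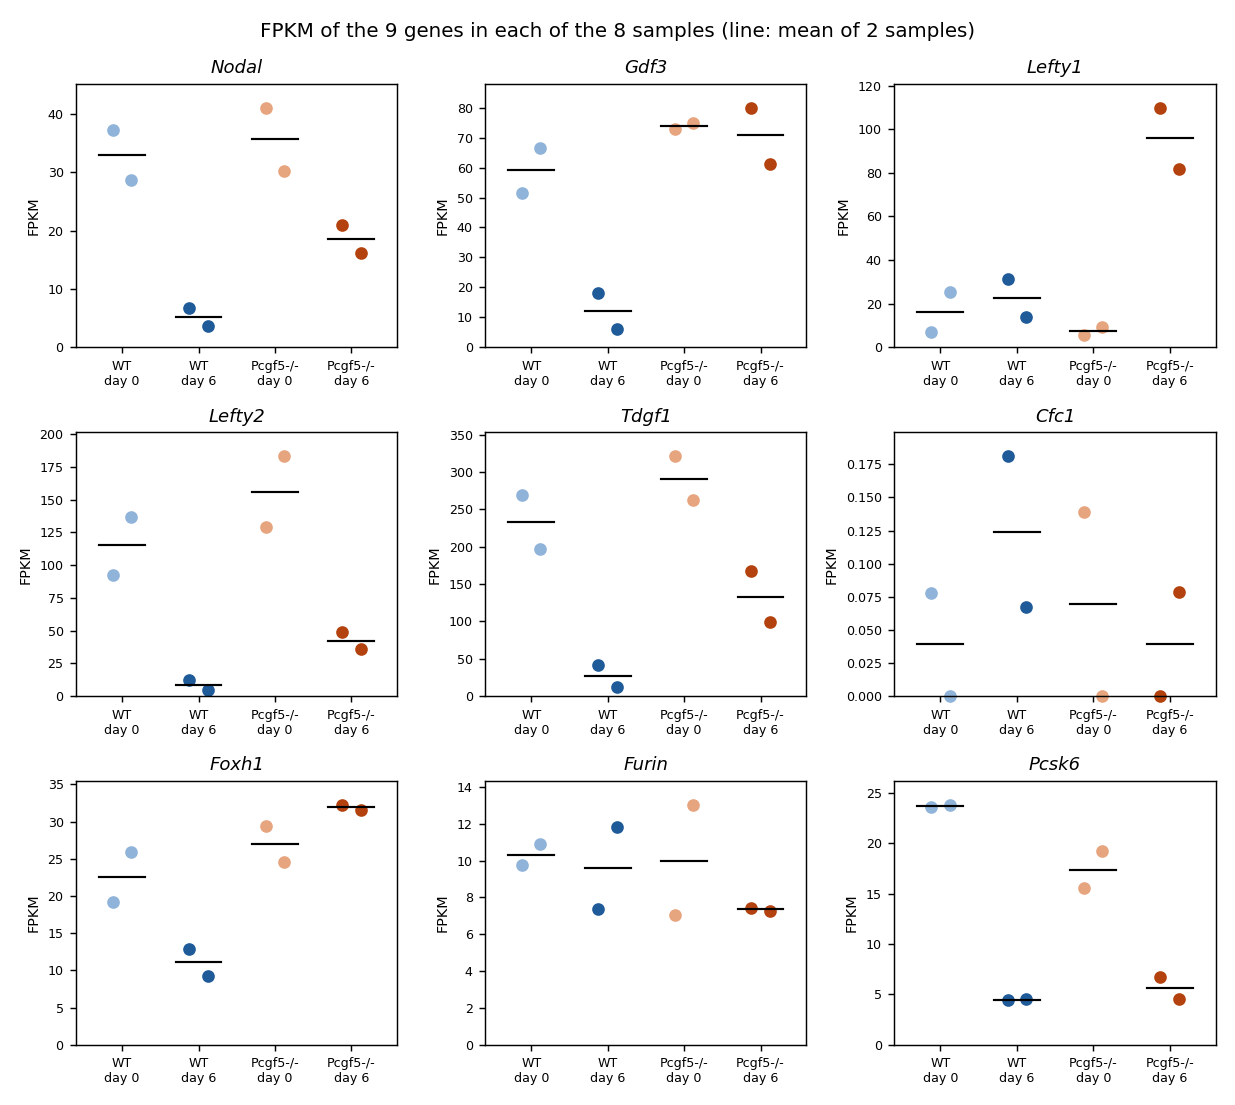
FPKM (linear axes from 0) of the 9 genes in the 2 samples of each group, with the mean as a line. At day 6 the Pcgf5-/- samples lie above the WT samples for Nodal, Gdf3, Lefty1, Lefty2, Tdgf1 and Foxh1 and overlap them for Furin, Pcsk6 and Cfc1, which did not exceed 0.181 FPKM. Lying apart is no test with 2 samples against 2, and how many of all tested genes do so was not counted.

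In undifferentiated cells none of the genes passed the test between the genotypes. In the fit across all 13214 tested genes (limma on log2(FPKM + 1), Benjamini-Hochberg adjusted p under 0.05), 0 of the 8 tested members differed at day 0, and 0 of 8 did at an unadjusted p under 0.05, which 17.4% of all tested genes had. Over all tested genes 0.288% were called higher and 0.0454% lower in Pcgf5-/- cells. The largest differences were those of Lefty1 (log2 difference -0.81, 95% interval -2.08 to 0.45, adjusted p = 0.5), Lefty2 (0.45, -0.40 to 1.30, adjusted p = 0.589) and Pcsk6 (-0.43, -0.89 to 0.03, adjusted p = 0.314). For Nodal the difference was 0.11 with an interval of -0.53 to 0.75, so a difference of up to 0.75 on the log2 scale is within the interval. Gdf3 differed by 0.33 (adjusted p = 0.726), and by -0.19 once each chromosome's median was subtracted.

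After 6 days 6 of the 8 tested members were higher in Pcgf5-/- cells and 0 were lower, where 9.57% of all tested genes were called higher and 7.05% lower. The median log2 difference of the 8 was 1.92, against 0.02 over all tested genes. Both ligands were higher, Gdf3 by 2.60 ± 0.39 (log2 difference ± SE, limma adjusted p = 0.00758) and Nodal by 1.70 ± 0.28 (adjusted p = 0.00915). Both antagonists were higher, Lefty2 by 2.30 ± 0.37 (adjusted p = 0.00901) and Lefty1 by 2.14 ± 0.55 (adjusted p = 0.0349). The co-receptor Tdgf1 was higher by 2.44 ± 0.48 (adjusted p = 0.0147) and Foxh1 by 1.46 ± 0.20 (adjusted p = 0.00582). The convertases did not pass, with differences of 0.26 (95% interval -0.20 to 0.72, adjusted p = 0.404) for Pcsk6 and -0.31 (-0.97 to 0.35, adjusted p = 0.5) for Furin. With the chromosome medians subtracted, Gdf3 was still higher by 2.28 (adjusted p = 0.00893).

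The count at day 6 fell without some of the samples, and the calls over all tested genes fell without any 1 sample. Without the first Pcgf5-/- day 6 sample only Foxh1 of the 6 still passed (1.45, limma adjusted p = 0.0471), while the other 5 differed by 1.52 to 2.41 on the log2 scale with adjusted p-values from 0.0566 (Gdf3) to 0.167 (Lefty1). Lefty1 also missed the threshold without the second Pcgf5-/- day 6 sample (2.35, adjusted p = 0.0953) and without the second WT day 6 sample (1.58, adjusted p = 0.190). The direction was the same in each of these fits.

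**Figure D3:**
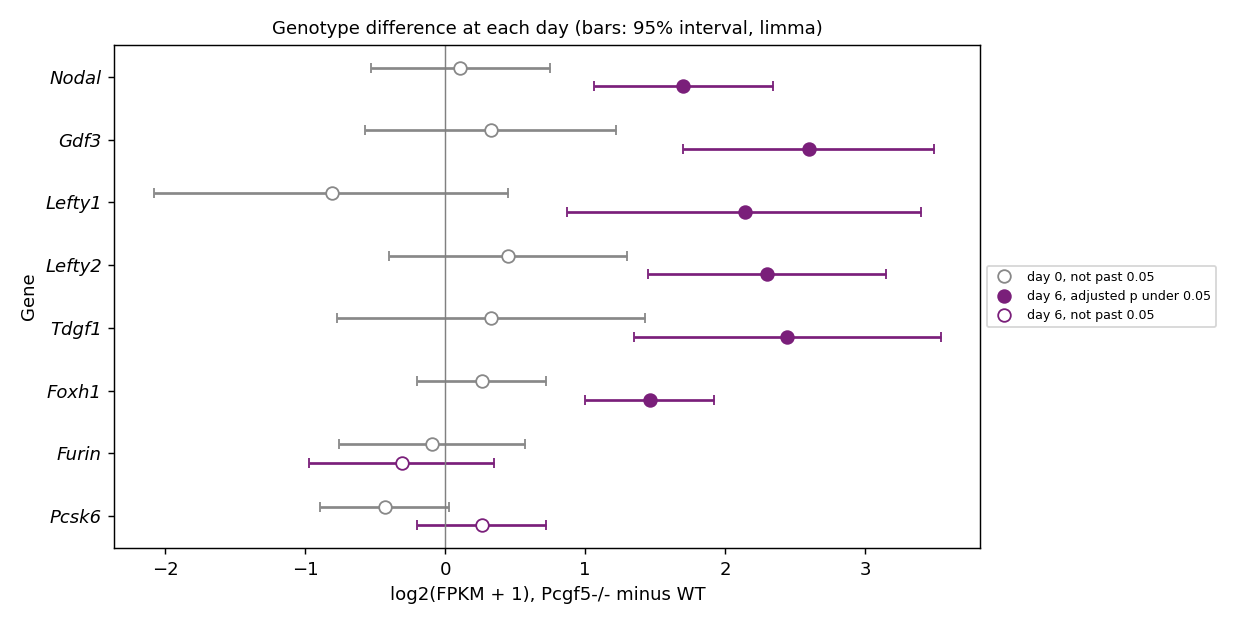
Difference of log2(FPKM + 1) between Pcgf5-/- and WT cells for the 8 tested genes at day 0 (grey) and day 6 (purple), with 95% intervals and filled points where the adjusted p was under 0.05. At day 6, 6 genes lie between 1.46 and 2.60, while Furin (-0.31) and Pcsk6 (0.26) have intervals that include 0, as all 8 do at day 0.

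Over the 6 days in N2B27, the RNA of most of these genes fell in WT cells. Of the 8 tested members 6 fell and 0 rose in WT cells, where 16.2% of all tested genes fell and 34.2% rose. Lefty2 fell by 3.72 (log2, limma adjusted p = 0.000131), Tdgf1 by 3.28 (adjusted p = 0.000811), Nodal by 2.49 (adjusted p = 0.000222), Gdf3 by 2.35 (adjusted p = 0.00156), Pcsk6 by 2.18 (adjusted p = 8.43e-05) and Foxh1 by 0.97 (adjusted p = 0.0045). Lefty1 (0.59, 95% interval -0.68 to 1.85, adjusted p = 0.398) and Furin (-0.13, -0.79 to 0.53, adjusted p = 0.732) did not pass, although Lefty1 did without the second WT day 0 sample (1.45, adjusted p = 0.044).

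In Pcgf5-/- cells 3 of the 8 fell and 1 rose, where 10.4% of all tested genes fell and 21.9% rose. Lefty1 rose by 3.54 (log2, limma adjusted p = 0.00268), a 12.9-fold increase of the mean. Lefty2 fell by 1.87 (adjusted p = 0.00725), Pcsk6 by 1.49 (adjusted p = 0.00146) and Nodal by 0.90 (adjusted p = 0.0392). Tdgf1 had a difference of -1.17 (adjusted p = 0.0952), Gdf3 of -0.07 (95% interval -0.97 to 0.82), Foxh1 of 0.24 (-0.22 to 0.70) and Furin of -0.34 (-1.01 to 0.32). Tdgf1 passed without either 1 of the WT day 6 samples (-1.17 each, adjusted p = 0.0174 and 0.0175) and with the compared groups alone. Without the second Pcgf5-/- day 6 sample the calls of Lefty2 and Nodal were lost, which left 2 of 8, and that of Nodal was also lost without the first one or without any 1 of the 4 day 0 samples (adjusted p up to 0.206), with a pseudocount of 0.01 and without an FPKM minimum. When the FPKM of Lefty1 and Lefty2 were added into 1 value, the sum changed by -0.24 in Pcgf5-/- cells (adjusted p = 0.667) and by -2.13 in WT cells (adjusted p = 0.00242), so the opposite moves of the antagonists in Pcgf5-/- cells nearly cancelled.

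**Figure D4:**
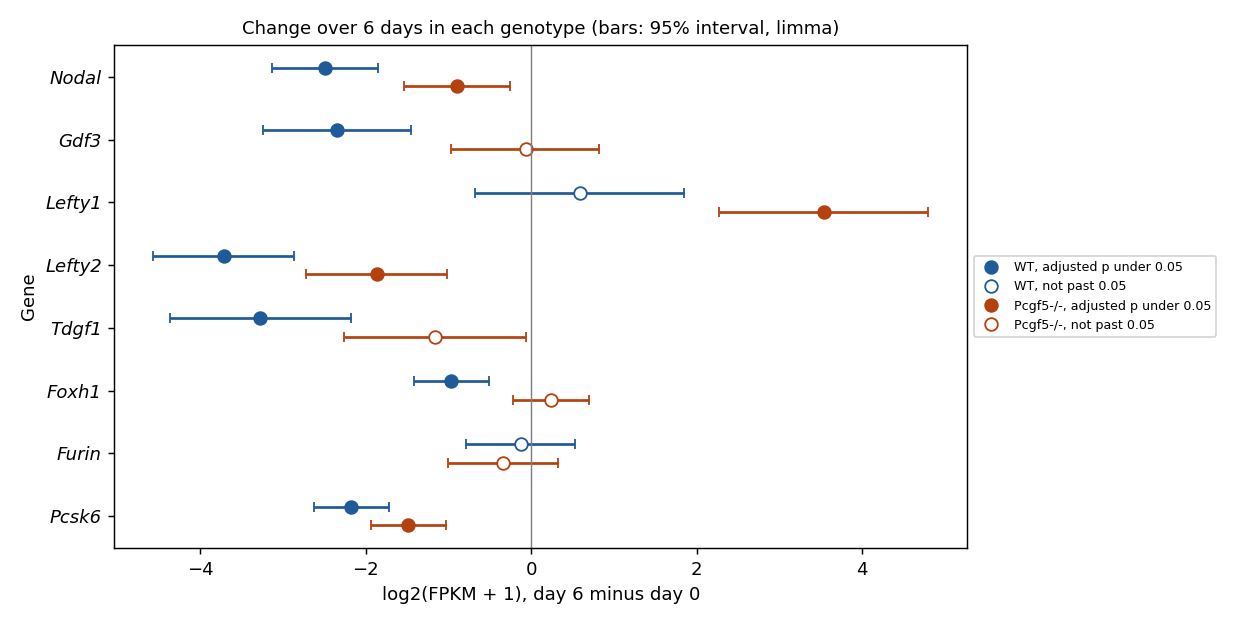
Change of log2(FPKM + 1) from day 0 to day 6 for the 8 tested genes in WT (blue) and Pcgf5-/- cells (orange), with 95% intervals and filled points where the adjusted p was under 0.05. The orange point lies to the right of the blue one for 7 genes, and Lefty1 (0.59 in WT, 3.54 in Pcgf5-/-) is the gene with the largest rise.

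Whether the genotype difference itself changed from day 0 to day 6 was tested as an interaction. In that test 0 of 8 members passed the adjusted threshold in limma, against 3.09% of all tested genes, and 7 of 8 had an unadjusted p under 0.05, as did 23.2% of all tested genes. The genotype difference was larger at day 6 by 2.95 for Lefty1 (adjusted p = 0.0769), 2.27 for Gdf3 (adjusted p = 0.0646), 2.11 for Tdgf1 (adjusted p = 0.116), 1.85 for Lefty2 (adjusted p = 0.0903), 1.59 for Nodal (adjusted p = 0.0666) and 1.2 for Foxh1 (adjusted p = 0.0594). The values for Pcsk6 (0.69, adjusted p = 0.193) and Furin (-0.22, adjusted p = 0.784) were smaller. Without the first WT day 6 sample 4 of 8 passed, Nodal, Gdf3, Lefty2 and Tdgf1, and without the first WT day 0 sample 1 of 8 did, Lefty1. That 6 members passed at day 6 and 0 at day 0 is therefore not shown to be a difference between the days with all samples in the fit.

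Some of the genes that receive and pass on the signal were lower where the ligands were higher. Of 7 receptor and SMAD genes 6 were tested, and 3 of them were lower at day 6 and 0 higher in Pcgf5-/- cells, with a median log2 difference of -0.47, where 7.05% of all tested genes were lower and 9.57% higher and the median was 0.02. Smad3, a receptor-activated SMAD, was at 20.3 and 21.7 FPKM in WT and 10.2 and 11.1 FPKM in Pcgf5-/- cells (-0.92, limma adjusted p = 0.00936). Acvr2a, a type II activin receptor, was at 15.3 and 12.8 FPKM in WT and 7.87 and 6.53 FPKM in Pcgf5-/- cells (-0.87, adjusted p = 0.0168). Smad4, the shared partner of the activated SMADs, was at 35.4 and 31.5 FPKM against 25.5 and 21.2 FPKM (-0.50, adjusted p = 0.0478). Smad2 (-0.24, adjusted p = 0.348) and Acvr2b (-0.44, adjusted p = 0.255) were the most abundant that did not pass. All 6 rose in WT cells between the days, as did 34.2% of all tested genes, and 4 of the 6 rose in Pcgf5-/- cells, as did 21.9%. The genotype count at day 6 was 2 of 6, Smad3 and Acvr2a, without any 1 of the day 0 samples, 1 of 6, Smad3, without the second Pcgf5-/- or the first WT day 6 sample, and 0 of 6 without the first Pcgf5-/- or the second WT day 6 sample.

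No other list of the pathway held a gene that passed between the genotypes at day 6. Among other ligands and extracellular antagonists 0 of 6 tested genes passed, the most abundant being Tmeff1 (-0.30, limma adjusted p = 0.364) and the activin antagonist follistatin, Fst (-0.36, adjusted p = 0.329). Among genes known to respond to Nodal or activin 0 of 10 passed and 2 had an unadjusted p under 0.05, as did 32.7% of all tested genes, with a median of 0.34. Those 2, named after their values were seen, were the inhibitory SMAD gene Smad7, at 5.68 and 3.35 FPKM in WT and 9.39 and 7.05 FPKM in Pcgf5-/- cells (0.76, adjusted p = 0.0577), and Eomes, a T-box factor gene, at 1.1 and 0.494 against 4.42 and 1.62 FPKM (1.09, adjusted p = 0.0711). Skil, a SMAD corepressor, was at 12.4 and 6.40 FPKM in WT and 21.8 and 11.6 FPKM in Pcgf5-/- cells (0.76, adjusted p = 0.166). Nodal, Lefty1 and Lefty2, themselves targets of the pathway, were counted among the members and not in this list. Several other genes of the list were low at day 6, with means of at most 2.6 FPKM in either genotype. The response to Nodal as a whole was not tested. Among other convertases of the family 0 of 5 passed, the most abundant being Mbtps1 (0.20, adjusted p = 0.342) and Pcsk7 (-0.13, adjusted p = 0.641).

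Markers of the cell state moved with these genes. The summed FPKM of the 9 genes was 510.3 and 516 in WT and 622 and 616 in Pcgf5-/- samples at day 0, and 134 and 66.5 in WT and 474 and 337 in Pcgf5-/- samples at day 6. The sum of 10 pluripotency markers, among them Pou5f1, Nanog and Esrrb, was 1641 and 1643 in WT and 1707 and 1667 in Pcgf5-/- samples at day 0, and 309 and 194 against 760.2 and 691 at day 6. At day 6, 8 of these 10 markers passed as higher in Pcgf5-/- cells and 0 as lower, where 9.57% and 7.05% of all tested genes did. Their median log2 difference was 1.96, close to the 1.92 of the members. The sum of 10 neural markers, among them Sox1, Nes and Pax6, was 58.0 and 66.7 in WT and 69.1 and 99.5 in Pcgf5-/- samples at day 0. At day 6 it was 550.3 and 442 against 211 and 210.2. There 7 of the 10 passed as lower in Pcgf5-/- cells, as did 7.05% of all tested genes. Without the first Pcgf5-/- day 6 sample fewer of these markers passed, and fewer of all tested genes did too. The remaining Pcgf5-/- day 6 sample still had a pluripotency sum above both WT samples (691 against 309 and 194). Its neural sum was below both (210.2 against 550.3 and 442). In bulk RNA fewer cells of a type and less RNA per cell cannot be told apart, and the part of pluripotent cells in the differences of the members was not tested.

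**Figure D5:**
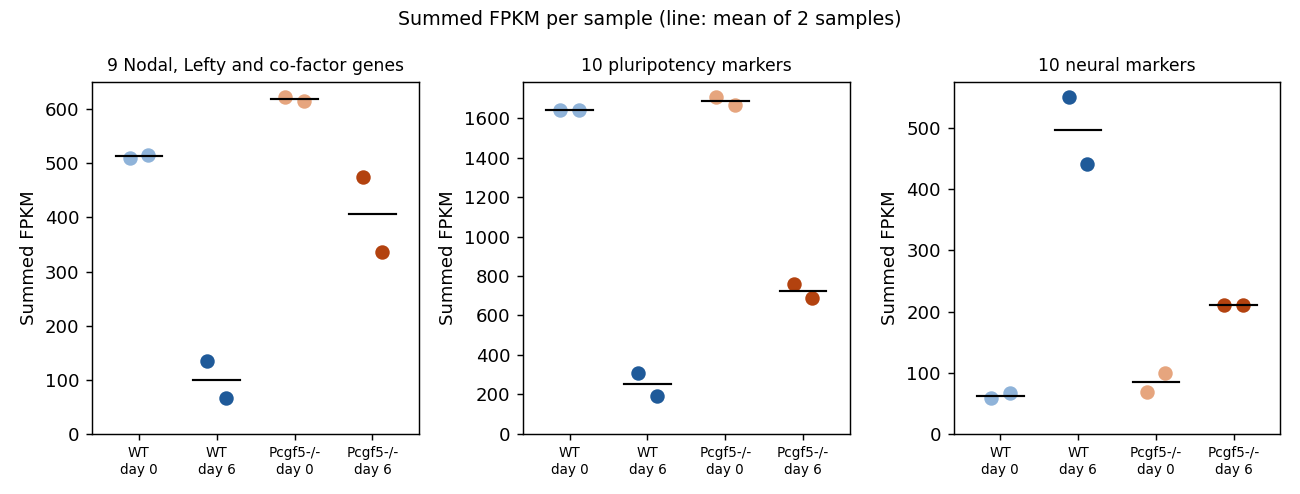
Summed FPKM of the 9 genes, of 10 pluripotency markers and of 10 neural markers in each sample, with the group mean as a line. At day 6 the Pcgf5-/- samples lie above WT for the members (474 and 337 against 134 and 66.5) and for the pluripotency markers (760.2 and 691 against 309 and 194) and below WT for the neural markers (211 and 210.2 against 550.3 and 442).

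Markers of other cells differed between days, between single samples and in part between the genotypes. Genes of fibroblasts, the cells of a feeder layer, summed to 267 and 172 FPKM in WT and 168 and 579 FPKM in Pcgf5-/- samples at day 0 and to 25.8 and 38.2 FPKM against 15.6 and 17.3 FPKM at day 6, lower in both Pcgf5-/- samples, with none of the 10 at 0 in both samples of a group. Primitive endoderm markers summed to 99 FPKM in the first WT day 6 sample and to between 5.35 and 28.4 FPKM in the other 7. Mesendoderm markers summed to 6.37 and 5.96 FPKM in WT against 8.85 and 10.2 FPKM in Pcgf5-/- samples at day 0. At day 6 they summed to 2.67 and 2.48 FPKM against 6.60 and 2.70 FPKM, with Mesp1 at 0 in both WT samples. The Pcgf5-/- sums were higher at both days, but at day 6 the nearest were 2.70 and 2.67 FPKM. Eomes had day 6 means of 3.02 FPKM in Pcgf5-/- and 0.798 FPKM in WT cells. Of the 3 tested markers 1 was higher and 2 were lower in Pcgf5-/- cells at day 6, with a median log2 difference of -0.06. The first WT day 6 sample was also the higher of its pair for 7 of the 9 genes, and the first Pcgf5-/- day 6 sample for 8 of 9. The part of these cells in the results was not tested.

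The genes whose pattern was most like that of each member differed between the members. Likeness was measured over the 8 samples as the root mean square difference of log2(FPKM + 1) after each gene's own mean was subtracted, among 9775 other genes. Closest to Nodal were Apela (0.16), which encodes a peptide ligand of the apelin receptor, Rec114 (0.17), Bin2 (0.20), Klf9 (0.21) and B3gnt2 (0.21). Closest to Tdgf1 were Upp1 (0.20), the growth factor gene Fgf4 (0.21), Morc1 (0.25), Trim25 (0.27) and the pluripotency factor gene Nr0b1 (0.28). Lefty2 was closest to Cobl (0.22), Arl14epl (0.23), Tdh (0.28), Sgk1 (0.32) and Esrrb (0.33), a pluripotency factor gene with means of 141 and 6.61 FPKM in WT and 152 and 38.7 FPKM in Pcgf5-/- cells at the 2 days. No gene was as close to Lefty1, whose nearest were Gbx2 (0.50), Slc27a2 (0.52), Halr1 (0.60), Psmb8 (0.62) and Vrtn (0.63). Gbx2, a homeobox gene, had means of 5.50 and 11 FPKM in WT and 2.80 and 23.2 FPKM in Pcgf5-/- samples at day 0 and day 6. Between the members, Nodal and Tdgf1 (0.45) and Tdgf1 and Lefty2 (0.46) were the closest of the pairs measured, whereas Lefty1 and Lefty2 were at 2.49, the farthest. Many of the 9775 other genes were closer still. To Nodal 175 were closer than Tdgf1, and to Lefty2 24 were closer than Tdgf1. To Tdgf1 22 were closer than Nodal and 22 closer than Lefty2.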

How the data were processed

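RNA-seq of 8 mESC samples was analysed, 2 per group, with genotype, day and replicate number taken from the labels. The authors mapped the reads with TopHat2 (2.0.4) to mm9 and deposited FPKM per gene from Cufflinks (2.1.1), per the labels; the gene annotation is not given in the sources used here. Cufflinks divides fragments that fit several places, so values of genes with near copies are uncertain. Confidence limits in the files were not used. FPKM hold no counts, so the error was taken from the spread between replicates, which limma pooled over the groups and moderated across genes. The samples are described as biological replicates; separate cultures are not documented, and p-values measure the spread between these samples.

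Genes with a mean above 1 FPKM in at least 1 group (13214) were tested on log2(FPKM + 1), which understates changes of low genes, in 1 limma fit (3.58.1, R 4.3.3, trended variance) with a mean per group, 5 contrasts and Benjamini-Hochberg adjustment over all tested genes. The Lefty share was compared by an exact permutation test, which was not among the planned contrasts. The fit was run on simulated data with independent noise for each gene, which cannot show how it behaves when a sample deviates across many genes. Transcripts were aligned to NCBIM37 with minimap2 (2.31). Named beside the 9 genes were Pcgf5, genes of each of the 4 pathway lists (receptors and SMADs, other ligands and antagonists, responsive genes, other convertases) past 0.05 at day 6 (at most 4) with the 2 most abundant others, and the 5 genes most like Nodal, Lefty1, Lefty2 and Tdgf1 (locus of at least 300 bp, mean of at least 5 FPKM in 1 group). Of the genes this rule names, 1 is not reported here. Members and lists were chosen with earlier results of these data known, and the study named Nodal, Lefty1 and Lefty2 from these samples, so no count over them is independent evidence of direction. Alternatives were the pseudocount, the FPKM minimum, quantile normalization, centring of chromosomes, a replicate block, the variance model, a fit of the compared groups alone, leaving out each sample and, added after the data were seen, summing Lefty1 and Lefty2.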

Additional observations from a re-analysis of the deposited data

Results flagged for a closer look

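Foxh1 was picked out because its samples moved in opposite directions over the 6 days in the 2 genotypes: both WT day 6 samples lay below both WT day 0 samples (log2 difference -0.97, limma adjusted p = 0.0045), and both Pcgf5-/- day 6 samples lay above both Pcgf5-/- day 0 samples (0.24, adjusted p = 0.396). The rise in Pcgf5-/- cells did not pass the test, and the direct test of the difference between the genotypes gave 1.2 with an adjusted p of 0.0594, so the opposite directions are not shown. Groups of 2 samples are too small to look for single samples that stand apart.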

How the results depend on the processing

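With 2 samples per group, the limits lie in the spread, and a group left with 1 sample is assumed to vary like the others. At day 6 the 8 genotype differences kept their direction in 144 of 144 alternative values and their side of the threshold in 134; the 10 others were lost calls, and besides those lost without 1 sample they were Tdgf1 without an FPKM minimum and with the compared groups alone, and Lefty1 without a minimum. Leaving out 1 sample at a time, the members that passed numbered 1 to 6 at day 6, 2 to 5 between the days in Pcgf5-/- cells and 0 to 4 in the interaction, where the main numbers were 6, 4 and 0. Summing the Lefty genes gave 2 between the days in Pcgf5-/- cells, and the interaction gave 2 with quantile normalization, 3 with chromosome medians centred and 2 with the replicate block. Replicates share only a number (correlation of their differences across genes 0.102 at day 0 and 0.387 at day 6), and the block let Nodal (adjusted p = 0.0314) and Tdgf1 (0.0494) pass in the interaction and Tdgf1 (0.0233) between the days in Pcgf5-/- cells, and changed no other member call. The causes were not tested.

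Over all tested genes the calls at day 0 numbered 44, and 6 without a minimum, 102 with a mean over 5 FPKM, 3 with quantile normalization, 2 with chromosome medians centred, 1 with the replicate block, 2 without a variance trend, 0 with the compared groups alone (2294 had an unadjusted p under 0.05 in the main fit to all groups) and 1 to 22 without 1 sample. They numbered 2197 at day 6 (297 to 1977 without 1 sample), 4271 between the days in Pcgf5-/- cells (2367 to 4147 without 1 sample), and 408 in the interaction, with 251 and 191 at pseudocounts of 0.1 and 0.01, 86 without a minimum and 4 to 347 without 1 sample. Signs turned only for differences that did not pass, apart from the summed Lefty value. At day 0 they turned for Nodal to -0.004 with quantile normalization and to -0.11 to 0.32 without 1 sample, for Gdf3 to -0.19 with chromosome medians centred, for Lefty1 to -1.68 to 0.05 without 1 sample and 0.34 when summed, and for Furin to -0.49 to 0.31 without 1 sample. In WT cells Lefty1 ranged from -0.28 to 1.45 without 1 sample and was -2.13 when summed, and Furin ranged from -0.43 to 0.18. In Pcgf5-/- cells Gdf3 ranged from -0.26 to 0.12 and Furin from -0.74 to 0.06 without 1 sample, and Lefty1 was -0.24 when summed. In the interaction Furin ranged from -0.61 to 0.18.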
